A study of Rattus norvegicus with 20 samples.

Results

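The comparison is between whole lungs of rats labelled Day 35 and whole lungs labelled NL, in a series on thickening of the inner vessel wall and pulmonary hypertension over time. All 3 arrays whose titles say Day 35 (numbered 15 to 17) and all 5 arrays whose titles say NL (numbered 2 to 6) were taken, 8 of the 20 arrays in the series, and all 1185 probes were used. Each array measured total RNA of lung. The labels give no strain, sex, age, treatment or method of inducing disease, do not expand NL, and do not say from which event days were counted. Whether each array is its own animal is not given either. The p-values therefore weigh differences against array-to-array spread, which may be technical.

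In pulmonary hypertension the small arteries of the lung narrow and the pressure that the right heart must work against rises. Neointimal growth is a form of this narrowing, in which cells, largely of the smooth muscle type, gather inside the inner elastic layer of the vessel. Whole lung also holds airway and alveolar epithelium, endothelium, connective tissue and blood cells, so a vessel change is diluted in RNA from all of these. In such bulk samples a change in the number of cells of a type and a change in RNA per cell cannot be told apart.

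No table used here links a probe to its gene. Probes are therefore given by the deposited identifiers, no pathway or cell type marker was read, and the labelled tissue was not checked against markers. The values are the authors' processed ones, centred near 0 in each array and log-like in shape, with no stated base. Differences are given in these units and not as folds. R706 and R098 (higher), and R056 and RG468 (lower), were named by a rule of size. The other probes named below were chosen after their values were seen.

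Among the NL arrays, numbers 4 to 6 stood apart from numbers 2 and 3. Arrays 4 to 6 lay above all of the other 17 arrays of the series, whatever their label, for 21 of the 1185 probes and below all of them for 26. The mean of arrays 4 to 6 was at least 1 unit from that of the other 17 for 12 of the 21 and 19 of the 26. Some gaps were small: RG108 read -0.21, -0.06 and -0.21 in arrays 4 to 6 and -0.88 to -0.22 in the others. For R529 arrays 4 to 6 read 8.19, 6.80 and 6.17, the highest value on each of these arrays, while the other 17 arrays ran from -0.90 to -0.08. For R643 arrays 4 to 6 read 0.29, 0.05 and -0.03, while the other 17 ran from 3.15 to 5.03. The spread of values within an array also differed: the interquartile range was 1.36 and 1.49 in NL arrays 2 and 3, 0.91 in array 4, and 0.42 in arrays 5 and 6. In the Day 35 arrays it was 1.28, 1.07 and 1.14. The mean was 1.16 ± 0.11 (SD, n = 3) at Day 35 and 0.92 ± 0.50 (n = 5) in NL, a difference of 0.24 (exact two-sided permutation test over 56 splits, p = 0.429, where the smallest possible p is 0.0179). Without NL array 5 or NL array 6 this difference was 0.118, and without NL array 3 it was 0.386. Day 35 is therefore set below against all NL arrays and against each set of them.

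Differences of at least 1 unit were mostly positive, although most probes had a lower mean at Day 35. Of the 1185 probes, 545 had a higher mean at Day 35 and 640 a lower one, and the median difference was -0.03. The central part was narrow, with quartiles at -0.17 and 0.23, and the 5th and 95th percentiles lay at -0.48 and 0.90. At least 1 unit higher were 47 probes and at least 1 unit lower were 14. At least 2 units higher were 12 probes, of which 9 passed the test, and at least 2 units lower were 3, of which 0 passed.

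In the limma fit, 14 probes rose (1.18% of those tested) and 0 fell (0.00%), at an adjusted p under 0.05. Unadjusted p was under 0.05 for 88 higher and 32 lower probes, against 59.25 of either sign expected by chance. The groups did not overlap for 84 probes (7.09%), with Day 35 on the higher side for 54 (4.56%) and on the lower side for 30 (2.53%). The median difference was 0.90 over the 54 and -0.43 over the 30. This split changed with the arrays: it was 116 higher and 131 lower without NL arrays 4 to 6, 68 and 70 without NL array 3, and 96 and 90 without Day 35 array 17. Higher calls outnumbered lower ones under each scaling of the arrays, but the split moved: quantile normalization gave 23 higher and 9 lower, ranks within each array gave 13 and 4, and a common interquartile range gave 9 and 0.

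**Figure D1:**
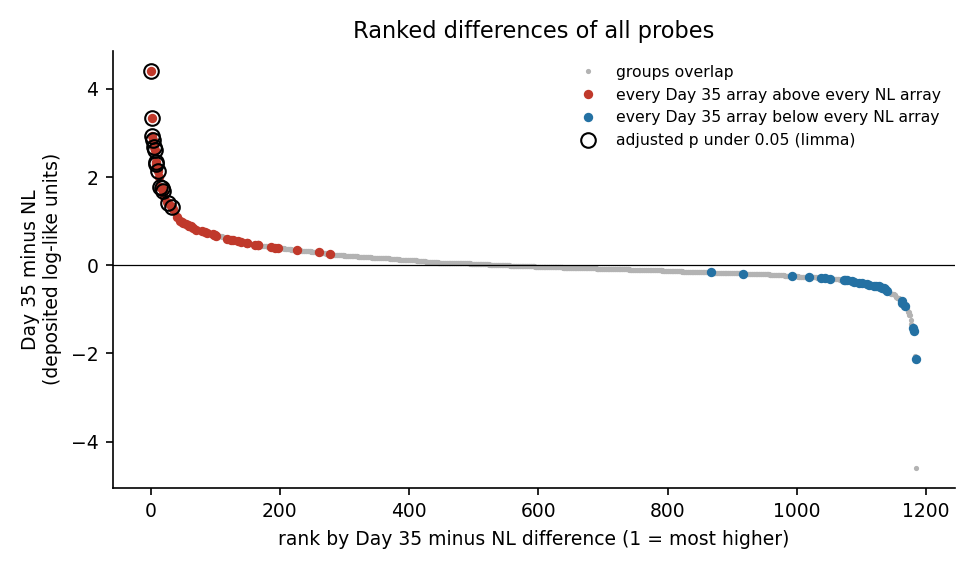
Difference of group means, Day 35 minus NL, in deposited log-like units, for each of the 1185 probes in rank order. Red and blue points are the 54 and 30 probes whose groups do not overlap and black circles the 14 that passed the limma test. The circles all sit at the upper end, and the lowest point of the plot, R529 at -4.60, belongs to a probe whose groups overlap.

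The most raised and most lowered probes are set side by side here by rank, with no test. Among the 10 most raised probes the differences ran from 4.42 to 2.23, 8 passed the test and in 9 the groups did not overlap. Among the 10 most lowered the differences ran from -4.60 to -1.24, 0 passed and in 3 the groups did not overlap. Ranks 11 to 25 held 7 separated probes on the higher side, with differences from 2.15 to 1.45, and 3 on the lower, with differences from -1.13 to -0.80. Ranks 26 to 50 held 8 on the higher side, with differences from 1.42 to 0.96, and 2 on the lower, with differences from -0.79 to -0.54. From rank 51 to 100, differences of 0.95 to 0.69 came with 13 separated probes, and differences of -0.53 to -0.37 with 11.

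R706 rose most. It read 0.28, 0.28, -0.12, -0.11 and -0.11 in NL arrays 2 to 6, and 4.68, 3.90 and 4.80 in Day 35 arrays 15 to 17. Every Day 35 array was far above every NL array, and the probe went from the middle of the array to its top: its value stood between position 482 and 772 of 1185 in NL and between position 14 and 21 at Day 35. Positions compare a probe with itself across arrays and do not compare amounts of different transcripts. The difference was 4.42 (SE 0.71, 95% interval 2.91 to 5.93, limma adjusted p = 0.00341). It was 4.18 against the mean of NL arrays 2 and 3 and 4.57 against that of arrays 4 to 6.

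R098 was next. It read 0.25, -0.28, 0.00, 0.12 and -0.16 in the NL arrays and 3.09, 2.86 and 4.05 in the Day 35 arrays, again with no overlap. The difference was 3.35 (SE 0.61, 95% interval 2.06 to 4.63, adjusted p = 0.00576), and it was 3.35 against either set of NL arrays. R706 and R098 were called in 16 of 18 alternative settings each. Both lost the call once the arrays shared 1 interquartile range, with differences of 4.71 (adjusted p = 0.154) and 3.51 (adjusted p = 0.240), and without NL arrays 4 to 6 (adjusted p = 0.139 and 0.178).

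Smaller rises with smaller SEs were seen for R272, R511 and R525, which had the lowest p-values of the ranking. R272 read 0.33, -0.06, -0.07, -0.29 and -0.27 in NL and 3.22, 3.02 and 2.31 at Day 35. Its difference was 2.92 (SE 0.37, adjusted p = 0.000393). R511 read -0.09, -0.46, -0.14, 0.07 and -0.15 in NL and 2.21, 2.08 and 2.12 at Day 35. The SD of the Day 35 arrays was 0.07, the smallest of the 14 called probes, and the difference was 2.29 (SE 0.34, adjusted p = 0.00180). R525 read 0.49, 0.16, -0.36, 0.07 and 0.06 in NL and 2.16, 1.58 and 1.79 at Day 35. It was higher by 1.76 (SE 0.23, adjusted p = 0.000393). These 3 were called in 17 of 18 alternatives. The exception was the fit without NL arrays 4 to 6, where each had an adjusted p of 0.0561, with differences of 2.72, 2.41 and 1.52. The SEs above pool the spread of all 6 groups. In the limma fit to NL and Day 35 alone, R706 had an SE of 0.24 and an adjusted p of 2.6e-05. That was below the adjusted p of R511 (0.000130), R272 (0.000264) and R525 (0.00624).

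RG416, the fourth largest rise, was called in the fewest alternatives of the 14 called probes. It read 4.36, 3.15, 2.86, 1.10 and 0.88 in NL and 6.09, 4.86 and 5.02 at Day 35, with no overlap. The difference was 2.85 (SE 0.63, adjusted p = 0.0278). It was 1.57 against NL arrays 2 and 3 and 3.71 against arrays 4 to 6, and the probe was called in 8 of 18 alternatives. The adjusted p over these ran from 0.000594 to 0.419, the highest with a common interquartile range. It was not called without NL array 5 or 6 (adjusted p = 0.0737 and 0.0621) or without any single Day 35 array (0.284, 0.0712 and 0.0704 for arrays 15 to 17).

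R707 and R696 rose with unequal Day 35 arrays. R707 read 0.40, 1.14, 0.22, 0.10 and 0.34 in NL and 3.86, 4.11 and 1.41 at Day 35. R696 read 1.23, -0.12, 1.07, -0.11 and 0.00 in NL and 4.32, 3.41 and 1.36 at Day 35. In both, array 17 lay just above the highest NL array, while arrays 15 and 16 lay more than 2 units above it. The differences were 2.69 (SE 0.51, adjusted p = 0.00855) and 2.62 (SE 0.53, adjusted p = 0.0135). Neither was called without Day 35 array 15 (differences 2.32 and 1.97, adjusted p = 0.0986 and 0.181) or without array 16 (2.20 and 2.43, adjusted p = 0.0879 and 0.105). Both also lost the call in the fit to NL and Day 35 alone (adjusted p = 0.0913 and 0.159) and without NL arrays 4 to 6 (0.263 for each). R696 lost it too with a common interquartile range (0.0556) and with ranks (0.109).

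The 14 called probes had differences from 1.32 to 4.42, with a median of 2.32. Of these, 12 had an NL mean between -0.5 and 0.5, as did 767 of all 1185 probes (64.7%). The median value of the 14 was 2.77, 2.46 and 1.88 in Day 35 arrays 15 to 17. In NL arrays 2 to 6 it was 0.44, -0.01, -0.03, 0.02 and -0.13. Array 15 was the highest of the Day 35 arrays for 9 of the 14 and the lowest for 0. NL array 2 was the nearest control: the median of the Day 35 means minus array 2 was 1.58, against 2.24 to 2.49 for the other NL arrays. The Day 35 SD had a median of 0.53 over the 14, above the 0.23 of all probes. For the NL SD the medians were 0.31 over the 14 and 0.35 over all probes. The probes were not matched for level in these comparisons.

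**Figure D2:**
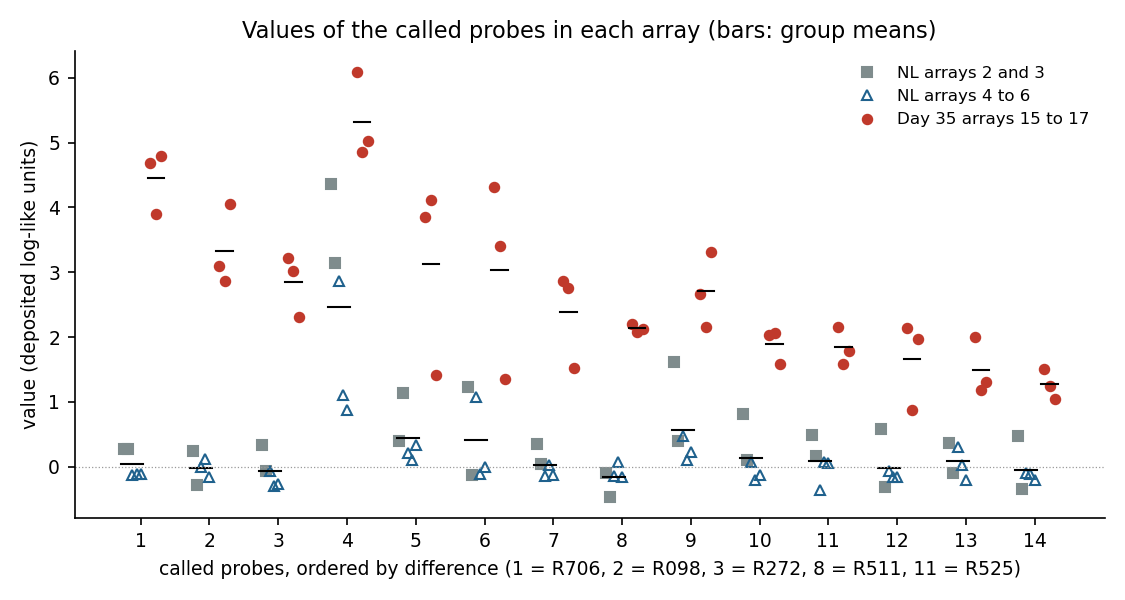
Value of each of the 14 called probes, in deposited log-like units, in NL arrays 2 and 3 (squares), NL arrays 4 to 6 (triangles) and the Day 35 arrays (circles), with group means as bars. Every circle lies above every NL symbol of its probe, and in probes 5 and 6 (R707 and R696) the lowest circles, 1.41 and 1.36, come close to the highest NL values, 1.14 and 1.23.

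Which NL arrays served as controls changed both ends of the ranking. Over all probes, 53.2% were higher at Day 35 than the mean of NL arrays 2 and 3, and 48.7% were higher than that of arrays 4 to 6. Of the 25 most raised probes, 24 were higher at Day 35 than the mean of NL arrays 2 and 3 and 25 were higher than that of arrays 4 to 6. The median difference was 1.44 against arrays 2 and 3 and 2.46 against arrays 4 to 6. Of the 25 most lowered probes, 18 were lower than arrays 2 and 3 and 25 were lower than arrays 4 to 6, with medians of -0.56 and -1.32. Of these lowered probes, 10 were among the 21 for which arrays 4 to 6 lay above every other array of the series. Among the raised 25, 9 were among the 26 for which arrays 4 to 6 lay below every other array. Both lists of 25 were ranked against the mean of all NL arrays, most of which are arrays 4 to 6. This ranking by itself favours larger and more uniform gaps from arrays 4 to 6.

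Without NL arrays 4 to 6, 0 probes passed in the limma fit (71 at an unadjusted p under 0.05, smallest adjusted p = 0.0561). All 14 called probes kept their sign, which was fixed in advance because their groups do not overlap. Their median difference was 1.95 and their median SE 0.49, against a median SE of 0.38 with all NL arrays. Without NL arrays 2 and 3, 85 probes passed, 67 higher and 18 lower, and these included all 14. Leaving out NL array 2 alone gave 43 calls and leaving out Day 35 array 15 gave 5. Without Day 35 array 16 there were 9 calls.

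**Figure D3:**
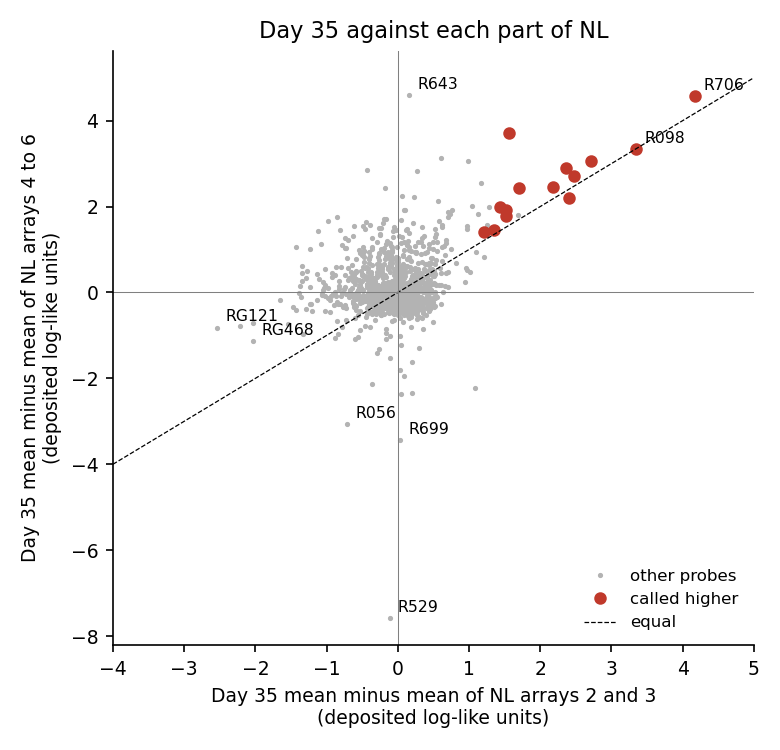
Day 35 mean minus the mean of NL arrays 2 and 3 (horizontal) against Day 35 mean minus the mean of NL arrays 4 to 6 (vertical), in deposited log-like units, for all 1185 probes. The 14 called probes (red) lie in the upper right, whereas R529 (-0.11 and -7.59) and R643 (0.16 and 4.59) lie along the vertical axis.

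R529 and R643, near the ends of the ranking, differed from NL arrays 4 to 6 and overlapped NL arrays 2 and 3. R529 had the most negative difference of all, -4.60 (SE 1.51, adjusted p = 0.223). It read -0.24 and -0.60 in NL arrays 2 and 3 and -0.64, -0.59 and -0.37 at Day 35, and the values of these 5 arrays overlapped. R643 was the fifth most raised, 2.82 (SE 0.94, adjusted p = 0.231). It read 4.34 and 4.73 in NL arrays 2 and 3 and 4.79, 4.41 and 4.89 at Day 35, again overlapping. Neither passed the test with all NL arrays. Both passed without NL array 2 (differences -5.67 and 3.44, adjusted p = 0.0302 and 0.0371) and without NL array 3 (-5.76 and 3.53, adjusted p = 0.0291 and 0.0327), and without both (-7.59 and 4.59, adjusted p = 6.7e-09 and 5.5e-06).

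R642, the probe numbered before R643, ran the opposite way in the same arrays. It read 3.81, 2.54 and 2.62 in NL arrays 4 to 6 and -0.16 and -0.51 in arrays 2 and 3. At Day 35 it read 1.14, 0.97 and 0.16. Its Day 35 difference was thus 1.09 from NL arrays 2 and 3, -2.23 from arrays 4 to 6 and -0.90 from all NL arrays (adjusted p = 0.882). It was called lower without NL arrays 2 and 3 (adjusted p = 0.00201).

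R056, the first of the lower probes named by the rule, was below NL in every Day 35 array without passing the test. It read 0.77, 0.26, 4.27, 2.33 and 2.02 in NL and -0.12, -0.44 and -0.03 at Day 35. The difference was -2.13 (SE 0.59, 95% interval -3.37 to -0.88, adjusted p = 0.121). It was -0.71 against NL arrays 2 and 3 and -3.07 against arrays 4 to 6. The probe was called lower in 4 of 18 alternatives, 3 of which left out NL array 2, array 3 or both, and the fourth of which used ranks within arrays.

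RG468 was lower than both sets of NL arrays. It read 2.45, 2.95, 1.78, 2.06 and 1.56 in NL and 1.51, 0.34 and 0.15 at Day 35. The groups did not overlap, although Day 35 array 15 at 1.51 lay close to NL array 6 at 1.56. The difference was -1.49 (SE 0.41, 95% interval -2.36 to -0.63, adjusted p = 0.121). It was larger against NL arrays 2 and 3 (-2.03) than against arrays 4 to 6 (-1.13), the reverse of R056. After quantile normalization it was -1.96 and passed (adjusted p = 0.0117). In the other 17 alternatives it kept its sign and was not called.

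R296 had the lowest p among lower probes. It read 1.06, 0.80, 1.53, 0.89 and 0.76 in NL and -0.15, -0.16 and 0.57 at Day 35, with no overlap. The difference was -0.92 (SE 0.23, adjusted p = 0.0755), and it was -0.84 and -0.97 against the NL sets. It was called in 4 alternatives: quantile normalization (-1.18, adjusted p = 0.0245), ranks, without NL arrays 2 and 3, and without Day 35 array 17. Of the lower probes named here it differed least between the NL sets.

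RG121 and R699 completed the 4 most negative differences and did not separate the groups. RG121 read 5.59, 4.78, 5.55, 2.22 and 2.62 in NL and 2.59, 1.75 and 3.59 at Day 35. Its difference was -1.51 (SE 0.83, adjusted p = 0.625), but -2.54 against NL arrays 2 and 3, the most negative difference from those arrays of all probes. It was called lower after quantile normalization, by -2.13 (adjusted p = 0.0443). R699 read -0.24, -0.12, 4.31, 2.88 and 2.68 in NL and -0.08, -0.14 and -0.22 at Day 35. Its difference of -2.05 (SE 1.10, adjusted p = 0.593) became 0.03 without NL arrays 4 to 6.

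**Figure D4:**
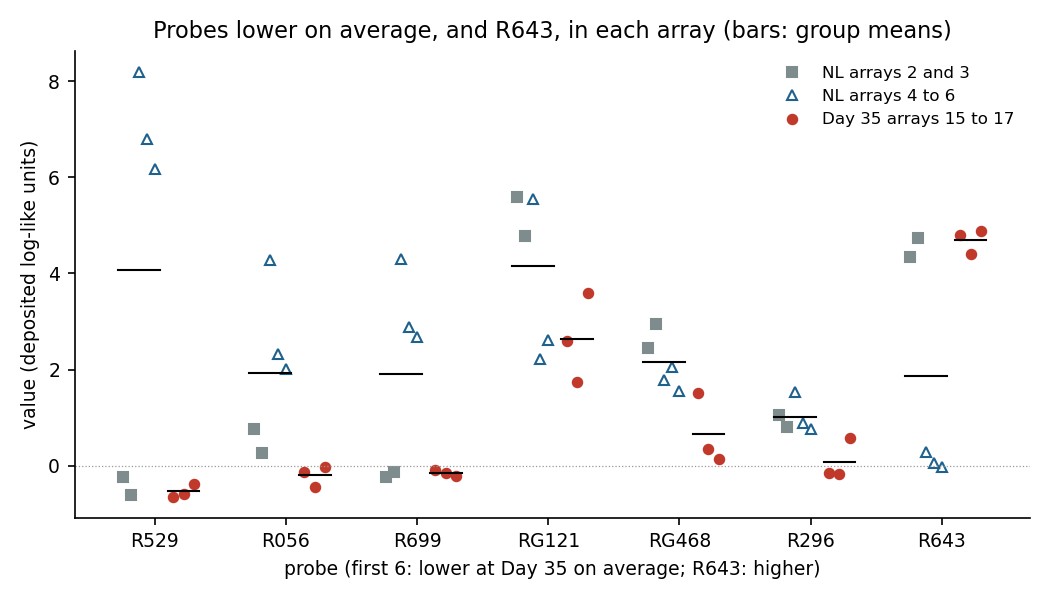
Values in deposited log-like units of 6 probes with a lower Day 35 mean and of R643, in NL arrays 2 and 3 (squares), NL arrays 4 to 6 (triangles) and the Day 35 arrays (circles), with group means as bars. For R529 and R699 the squares lie with the circles, whereas for RG468 and R296 all NL symbols lie above all circles.

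Differences moved with the mean value of the probe. With probes cut into quintiles by their mean over the 19 arrays of the fit, the median difference was -0.11 in the lowest quintile, -0.07, -0.01 and 0.04 in the next ones and 0.44 in the highest. The Day 35 mean was above the NL mean for 16.4% of probes in the lowest quintile and 76.4% in the highest. This gradient followed the NL arrays: the median of the highest quintile was 0.84 without NL arrays 2 and 3 and -0.22 without NL arrays 4 to 6. With a common interquartile range it was -0.16 and after quantile normalization 0.05. The general tilt of high-valued probes towards Day 35 thus changed sign with the controls and with the scaling, and its sign is not a result.

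Of the 14 called probes, 8 were in the highest quintile and 6 in the next. The quintiles use a mean that includes the Day 35 arrays, so a rise itself moves a probe up: R706 had an NL mean of 0.04 and a mean over the 19 arrays of 2.11. Separated groups numbered 21, 13, 15, 5 and 0 for the 54 higher probes from the highest quintile to the lowest, and 3, 7, 13, 7 and 0 for the 30 lower ones. After scaling to a common interquartile range 9 probes were called, all higher, and these held 7 of the 14. All 14 were among the 32 calls after quantile normalization, with a median difference of 2.20.

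**Figure D5:**
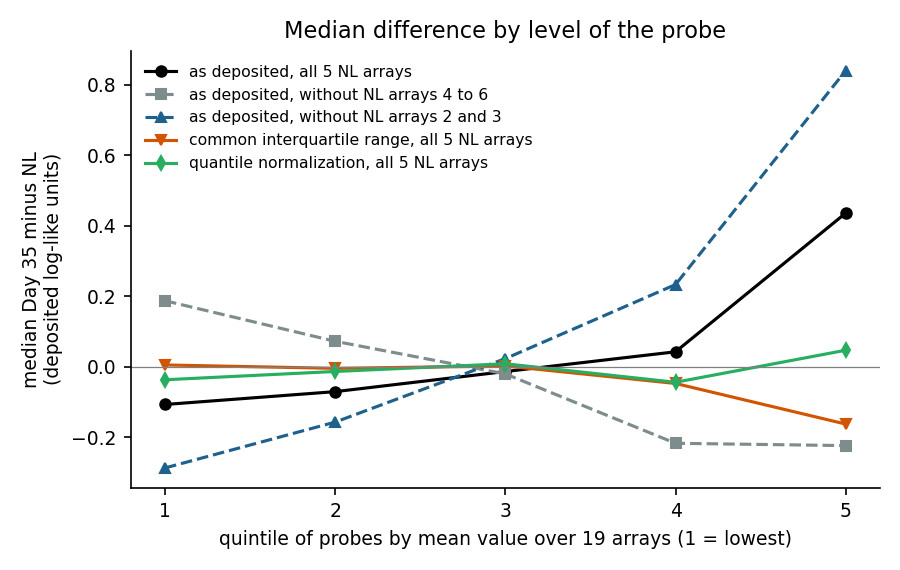
Median Day 35 minus NL difference, in deposited log-like units, of the probes in each quintile of mean value, under 5 settings (lines). In the highest quintile the median is 0.44 as deposited, 0.84 without NL arrays 2 and 3, and -0.22 without NL arrays 4 to 6, and it is near or below 0 once the arrays share a spread.

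Identifiers began with R for 702 probes and with RG for 483, a difference whose meaning is not given in the sources used here. Of the R probes 11 (1.57%) were called and of the RG probes 3 (0.621%). Separated and higher were 37 R probes (5.27%) and 17 RG probes (3.52%), and separated and lower were 18 (2.56%) and 12 (2.48%). The median value over the 19 arrays was 0.14 for R and -0.12 for RG probes, so the prefixes also differed in level. No test was made of these shares.

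Separated higher probes often carried consecutive numbers. Of the 54, 17 (31.5%) had a probe numbered directly before or after, with the same prefix, in the same list. Of the other 1131 probes, 77 (6.81%) had such a neighbour in it. Among the 30 separated lower probes 0 had a neighbour in their own list. R705, R706 and R707 formed 1 run: R705 read 0.06, -0.76, -0.23, -0.15 and -0.24 in NL and 0.95, 0.67 and 0.62 at Day 35. Its difference was 1.01 (SE 0.29, adjusted p = 0.137). R510, next to R511, had a mean of -0.37 ± 0.29 (SD, n = 5) over the NL arrays, against 0.61 ± 0.35 (n = 3) for Day 35. Its difference was 0.98 (SE 0.29, limma adjusted p = 0.144). Both passed after quantile normalization, R705 by 1.06 (adjusted p = 0.0179) and R510 by 0.99 (adjusted p = 0.0103). The sources used here do not say whether the numbers follow the position on the array or the kind of gene, and a part of either in this count was not tested.

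The other labelled groups show where Day 35 stood. These groups share the NL arrays as controls, so values are given side by side and without a test. R706 read 0.57 and 2.28 in the Day 14 arrays, 4.73, 0.42 and 1.05 at Day 21, 1.99, 2.02 and 1.59 at Day 28, and 2.99, 3.78 and 5.08 in T, a group whose label is not expanded. Day 21 array 9 and T array 20 thus lay within or above the Day 35 range, and the other arrays of these groups lay below it. R098 read 0.12 and 1.01 at Day 14, 4.11, 0.32 and 0.53 at Day 21, 1.13, 1.20 and 1.85 at Day 28, and 3.12, 3.05 and 3.61 in T. Day 21 array 9 was thus above every Day 35 array, T lay inside the Day 35 range, and Day 14 array 7 lay below NL array 2. R511 read -0.08 and -0.16 at Day 14, 1.24, -0.12 and -0.34 at Day 21, 0.00, 0.31 and 0.27 at Day 28 and 0.97, 2.68 and 2.05 in T. R525 read 0.80, 0.74 and 0.53 in T and 1.02 at most in the arrays of Days 14 to 28, below all 3 Day 35 arrays.

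Of the 14 called probes, all Day 28 arrays lay below all Day 35 arrays for 12, where 5.65% of all probes did, and all T arrays did so for 6, where 3.63% of all probes did. Complete separation above NL was seen in T for 8 of the 14 (3.04% of all probes), at Day 28 for 5 (1.69%), at Day 21 for 4 (1.94%) and at Day 14 for 2 (2.87%). The 14 had been chosen as high at Day 35 and low in NL, which favours such orders. Day 35 was above every other array of the series for 10 probes, 5 of them called, R525 among these, and below every other array for 4.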

How the data were processed

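Lung total RNA of rats was hybridised to arrays, and the authors deposited 1 processed value per probe and array, a log-like score with no stated base, platform, background correction or normalization. From the values, arrays are centred near 0 but not scaled to a common spread, and signal over background is unknown. Groups came from the array titles. The Normal Day 0 array was left out. A linear model over the 19 arrays of 6 groups (13 residual degrees of freedom) was fitted to all 1185 probes by lmFit and eBayes of limma 3.58.1, under R 4.3.3, and Day 35 was contrasted with NL. Tests were two-sided with Benjamini-Hochberg adjustment over all probes and a threshold of 0.05. The number of arrays limits the precision. The fit was also run on simulated data with independent normal noise and 1 SD per probe in all arrays. The real arrays differ in spread, so that run does not vouch for the calls made here.

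The members, lists and tests were chosen with earlier results of these data known. The rule for named probes was the 2 largest differences per direction among called probes, filled from probes whose groups do not overlap. The pathway and marker lists were not used, since no table here pairs probes with genes. Alternatives were a fit to NL and Day 35 alone, quantile normalization, a common interquartile range, ranks within arrays, a filter at the 25th percentile in at least 3 arrays, a floor at the 20th percentile, the Normal Day 0 array as a control, NL arrays 4 to 6 or 2 and 3 left out, trended and robust variances, and each array left out. Separate counts by direction and medians by quintile under these settings were added after seeing the data. Plots used Python 3.11.15 and matplotlib 3.10.9.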

Additional observations from a re-analysis of the deposited data

Results flagged for a closer look

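R707 had an NL array far from the others: array 3 read 1.14 where the other 4 read 0.10 to 0.40, and the gap was 0.7115 of the group's range, against a critical value of 0.71. Chance gives about 1 in 20 such gaps, and 19 measures were looked at in NL, the 18 named probes and the interquartile range.

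The Normal Day 0 array was outside the main comparison and read above all NL arrays for 5 of the named higher probes. It read 1.69 for R272 (highest NL 0.33), 1.44 for R696 (1.23), 0.40 for R098 (0.25), 0.15 for R511 (0.07) and -0.06 for R510 (-0.08). These probes were chosen as low in NL, which favours such a reading. Of the 14 called probes, 5 read above all NL arrays in the Normal Day 0 array, and no share over all probes is given.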

How the results depend on the processing

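All 14 called probes stayed higher at Day 35 in each of the 18 alternatives. Their groups do not overlap, so this sign was fixed in advance wherever arrays were only left out. It was also fixed in the fit to NL and Day 35 alone, the filter and the changed variances, which keep the differences as they are. The number of calls moved with the controls and the scaling. It was 32 after quantile normalization, 9 with a common interquartile range, 0 without NL arrays 4 to 6 and 85 without NL arrays 2 and 3, and it ran from 5 to 43 when single arrays were left out, against 14. The fit to NL and Day 35 alone gave 11, of which 10 were among the 14, and ranks gave 17, of which 9 were. The filter gave 14, the floor 13, trended and robust variances 14 and the Normal Day 0 array as a control 16. These held all 14, except the floor, which held 13. Probes whose groups did not overlap numbered 247 without NL arrays 4 to 6 and 358 without NL arrays 2 and 3, where fewer arrays make separation easier, and from 87 to 186 with single arrays left out, against 84. Over 18 named probes, 27 of the alternative values lost a call, 22 gained a call and the others kept direction and side of the threshold, except 3 that changed sign: R699 (0.033) and R642 (1.09) without NL arrays 4 to 6, and R642 with ranks (0.53 percentage points). The cause was not tested. The difference in spread between Day 35 and NL missed the threshold in the alternatives run for it, which were the standard deviation (0.18, exact permutation p = 0.393) and each array left out (0.118 to 0.386). Ranks have another unit, so the median of the highest quintile was not compared under them. No paired analysis was possible because no number in the titles occurs in more than 1 group.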

Other observations

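Against the Normal Day 0 array, a single sample, 13 of the 14 called probes were higher in every Day 35 array. The exception was R696, which read 1.44 there and 1.36 in Day 35 array 17. The 14 had been chosen as high at Day 35 and low in NL, which favours such an order. No share over all probes is given beside this count. The median of the 14 was 0.40 in the Normal Day 0 array, between the 0.44 of NL array 2 and the values near 0 of the other NL arrays. For R529 and R643, which were among the probes that set NL arrays 4 to 6 apart, the Normal Day 0 array read -0.18 and 4.71. These values lay with NL arrays 2 and 3 and all labelled days. For RG468 it read 2.92 and for R056 0.83, above all Day 35 arrays in both.

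R699 was high in NL arrays 4 to 6 and also in 2 arrays of other groups, 3.96 in Day 14 array 8 and 3.76 in Day 28 array 12, while all other arrays lay below 0.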
